A study of Eucalyptus nitens with 12 samples.

Results

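Eucgr.I00074 and Eucgr.H03496 are sucrose synthase genes of the eucalypt genome, and the counts of both were examined in cambial scrapings of *Eucalyptus nitens* trees of low and high kraft pulp yield (KPY, the mass of pulp obtained from a mass of wood). They were chosen by name, as every row of the deposited count tables that carried either identifier. The 2 genes, out of 18778 genes with an identifier in the tables, were held in 14 rows. Each row is a transcript predicted from the reads of a trial, and 8 of the 26279 rows of the Meunna table and 6 of the 23917 rows of the Florentine table belonged to them. In the annotation of the study Eucgr.I00074 carries the name of sucrose synthase 2 of *Arabidopsis*, and Eucgr.H03496 that of sucrose synthase 4 in one table and of sucrose synthase 1 in another. Both genes stand among the strongest falls that the study listed from these same libraries, so the tests below are not independent evidence of their direction.

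Trees of the KPY extremes were taken in the Meunna and Florentine trials in Tasmania. There were 4 groups with 3 libraries each: Meunna low KPY, Meunna high KPY, Florentine low KPY and Florentine high KPY. The labels give xylem as the tissue and 20 years as the age in all groups, and the trees grew in the field without any treatment. By the planting and sampling dates in the study's methods, both trials had stood for less than 20 years when sampled. That time was shorter at Meunna than at Florentine. A library was made from pooled RNA of several trees, so it is a bulk and not a tree, and the spread between libraries is a spread between pools. KPY went together with stem diameter among the sampled trees, so low KPY and slow growth cannot be told apart here.

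Sucrose synthase is an enzyme of sink tissues that receive their carbon as sucrose. With UDP it cleaves sucrose into fructose and UDP-glucose, in a reversible reaction, and UDP-glucose is the substrate from which cellulose synthase builds glucan chains at the plasma membrane. In wood-forming tissue the enzyme is therefore placed at the entry of carbon into the secondary wall, beside invertases, which cleave sucrose into glucose and fructose without making UDP-glucose.

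The libraries held 49489614 to 70097142 counts in Meunna low KPY and 75565811 to 89987549 in Meunna high KPY, and 44538273 to 53775708 in Florentine low KPY and 45345079 to 45986808 in Florentine high KPY. Values are given below as CPM, counts per 1000000 counts of a library, over library sizes scaled by TMM, a method that sets aside the genes that differ most between libraries. Each trial was tested on its own by edgeR's quasi-likelihood F test, log2 fold changes are low over high KPY, and FDR is the p-value adjusted by the method of Benjamini and Hochberg over all rows or genes of a trial, with a threshold of 0.05. Transcripts were predicted separately in each trial, so CPM of a gene are compared within a trial only. Nothing in the labels says more of how bulks were formed, and the p-values measure the spread between these bulks. By the study's methods, Florentine bulks pooled more trees than Meunna bulks and were sampled in a later year. Pool size and sampling date therefore cannot be told apart from trial. In scrapings, fewer cells of a type and less RNA per cell cannot be told apart.

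In Meunna both genes were down-regulated in low KPY samples. Summed over its rows, Eucgr.I00074 had 14.0, 7.26 and 16.4 CPM in the low KPY libraries, against 90.8, 55.3 and 79.7 CPM in the high KPY libraries. Eucgr.H03496 had 2.45, 1.55 and 2.82 CPM in low KPY, against 19.2, 9.05 and 13.4 CPM in high KPY. Every low KPY library lay below every high KPY library in both genes, and low KPY replicate 2 was the lowest of all in both. The means of Eucgr.I00074 were 12.6 ± 4.75 CPM in low KPY and 75.3 ± 18.2 CPM in high KPY (SD, n = 3 each), a log2 fold change of -2.58 (SE 0.34, edgeR quasi-likelihood FDR 0.00352), or 0.167 of the high KPY level. Those of Eucgr.H03496 were 2.27 ± 0.652 CPM in low KPY and 13.9 ± 5.08 CPM in high KPY, a log2 fold change of -2.61 (SE 0.37, edgeR quasi-likelihood FDR 0.00413), or 0.164 of the high KPY level. Of the 17982 genes tested in Meunna, 20.0% fell past the threshold, the low KPY libraries lay below the high KPY libraries without overlap in 28.8%, and the median log2 fold change was 0.00266. A change below that of Eucgr.I00074 was seen in 0.957% of these genes, and below that of Eucgr.H03496 in 0.890%. Leaving out any 1 of the 6 Meunna libraries kept both calls.

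In Florentine both genes were again down-regulated in low KPY samples. Eucgr.I00074 had 15.2, 4.42 and 12.0 CPM in the low KPY libraries, against 45.2, 35.3 and 38.1 CPM in the high KPY libraries. Eucgr.H03496 had 8.59, 3.39 and 7.62 CPM in low KPY, against 28.9, 20.2 and 21.3 CPM in high KPY. The classes did not overlap in either gene, and low KPY replicate 2 of this trial too was the lowest library in both. The means of Eucgr.I00074 were 10.5 ± 5.53 CPM in low KPY and 39.5 ± 5.08 CPM in high KPY (SD, n = 3 each), a log2 fold change of -1.91 (SE 0.43, edgeR quasi-likelihood FDR 0.0172), or 0.266 of the high KPY level. Those of Eucgr.H03496 were 6.54 ± 2.77 CPM in low KPY and 23.5 ± 4.74 CPM in high KPY, a log2 fold change of -1.84 (SE 0.36, edgeR quasi-likelihood FDR 0.0142), or 0.278 of the high KPY level. Of the 16980 genes tested in Florentine, 23.7% fell past the threshold, 31.5% had every low KPY library below every high KPY library, and the median log2 fold change was 0.0236. A change below that of Eucgr.I00074 was seen in 0.430% of these genes, and below that of Eucgr.H03496 in 0.583%.

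The Florentine calls were close to the threshold once a library was missing. Eucgr.I00074 no longer passed the quasi-likelihood test without low KPY replicate 3 (log2 fold change -2.02, FDR 0.0515), without high KPY replicate 1 (-1.79, FDR 0.0578) or without high KPY replicate 3 (-1.92, FDR 0.0512). Eucgr.H03496 no longer passed it without high KPY replicate 1 (-1.65, FDR 0.0520). Without high KPY replicate 1 the quasi-likelihood test called no gene of the trial, so that loss was not particular to these genes. Without low KPY replicate 3 or high KPY replicate 3 it also called fewer of the further sucrose synthases described below than with all libraries. Those losses were therefore not confined to Eucgr.I00074. By edgeR's exact test and by DESeq2 both genes passed without any 1 of the 6 libraries, with a highest adjusted p of 0.00474 by the exact test and 0.00251 by DESeq2.

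**Figure D1:**
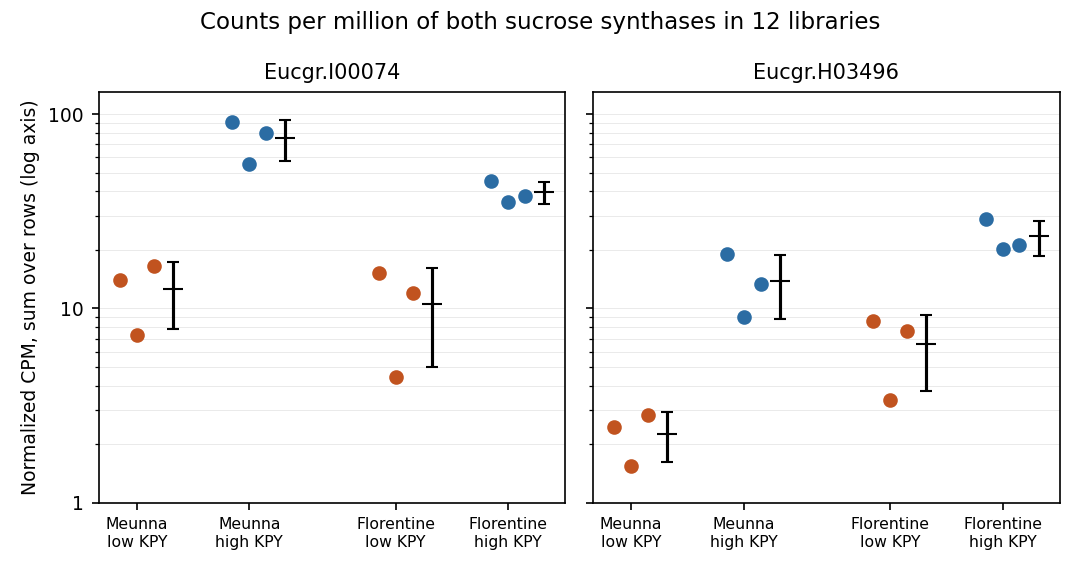
Normalized CPM of Eucgr.I00074 (left) and Eucgr.H03496 (right), summed over the rows of each gene, on a log axis. Points are the 3 libraries of a group in the order of their replicate numbers, orange for low KPY and blue for high KPY, and black marks are the mean and SD; in each trial every low KPY library sits below every high KPY library, and the middle low KPY point, replicate 2, is the lowest.

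Whether the change differed between trials was tested as the interaction of trial and KPY in 1 fit of the 12 libraries. The log2 fold change of Eucgr.I00074 was 0.65 less negative in Florentine than in Meunna (SE 0.58, p 0.281 and FDR 0.828 by edgeR's quasi-likelihood test), and that of Eucgr.H03496 was 0.75 less negative (SE 0.53, p 0.187, FDR 0.779). Neither difference passed the threshold, so a larger fall in Meunna was not shown for either gene. Of the 16184 genes tested for the interaction 0 passed, 0% of the genes, while 1150 (7.11%) had an unadjusted p under 0.05. At the same threshold edgeR's likelihood ratio test called 42 genes and DESeq2 called 110.

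The scaling of the libraries moved both genes with all others. Without TMM, on library size only, the median log2 fold change of all genes shifted to 0.28 in Meunna and 0.34 in Florentine. On that scale Eucgr.I00074 was at -2.31 and -1.61 and Eucgr.H03496 at -2.34 and -1.54 in Meunna and Florentine, and all 4 values kept their calls, as they did with RLE and upper-quartile scaling. The share of lower genes among those called is far less stable. In Meunna 57.8% of the called genes were lower in low KPY with TMM, 45.3% with upper-quartile scaling and 30.5% on library size only, and in Florentine 50.0% with TMM and 22.1% on library size only.

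The rows show how much of a gene stands behind these sums. The count tables hold no coordinates, and the position of a row was taken from the study's own lists. In Meunna, CUFF.31329 and CUFF.31330 of Eucgr.I00074 overlap each other, and CUFF.31336 and CUFF.31337 lie further along the gene. In Florentine, CUFF.29070 and CUFF.29071 are the overlapping pair at the same place, and CUFF.29072 spans the stretch of the other pair. The rows of Eucgr.H03496 are short separate pieces: CUFF.29761, CUFF.29762 and CUFF.29765 of Meunna lie where CUFF.27571, CUFF.27572 and CUFF.27570 of Florentine lie, and CUFF.29766 of Meunna has no counterpart.

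Overlapping rows repeat reads. CUFF.29070 and CUFF.29071 differed by 0 to 3 counts in the 6 Florentine libraries, and CUFF.31330 held 0.874 to 0.924 of the counts of CUFF.31329 in the Meunna libraries. Hence the 14 rows are not 14 independent measurements, and a read in the overlap enters the sum of Eucgr.I00074 more than once. With CUFF.31330 or CUFF.29071 left out of the sum, an alternative chosen after seeing the data, the log2 fold change of Eucgr.I00074 was -2.56 in Meunna and -1.87 in Florentine, with both calls kept. No row of either gene had counts identical to another row of its table in every library.

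Of the 8 Meunna rows 7 fell past the threshold, where 16.9% of all Meunna rows did. CUFF.31329 had 344, 148 and 275 counts in low KPY, against 1971, 1508 and 1831 counts in high KPY, a log2 fold change of -2.68 (SE 0.36, edgeR quasi-likelihood FDR 0.00444). CUFF.31336, further along the gene, had 329, 166 and 274 counts in low KPY, against 2497, 1317 and 1389 in high KPY, a log2 fold change of -2.64 (SE 0.39, FDR 0.00540). The beginning and the middle of the covered stretch of Eucgr.I00074 thus gave log2 fold changes that differed by less than their SE. CUFF.31337 was the row that did not pass, with 22, 41 and 66 counts in low KPY and 161, 142 and 106 counts in high KPY, a log2 fold change of -1.46 (SE 0.52, FDR 0.0803). Its classes did not overlap either, and edgeR's exact test, its likelihood ratio test and DESeq2 gave it FDR of 0.0412, 0.0374 and 0.0485.

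The rows of Eucgr.H03496 in Meunna held few counts, 10 to 68 per row in a low KPY library and 122 to 539 in a high KPY library. The largest change was that of CUFF.29765, with 68, 27 and 44 counts in low KPY, against 539, 254 and 268 in high KPY (log2 fold change -2.83, SE 0.48, edgeR quasi-likelihood FDR 0.00830). The smallest was that of CUFF.29761, with 34, 19 and 52 counts in low KPY, against 176, 144 and 214 in high KPY (log2 fold change -2.19, SE 0.53, FDR 0.0241). All 4 pieces of the gene were lower in each low KPY library than in any high KPY library. For CUFF.29762, CUFF.29765 and CUFF.29766 this order was set in advance. They lay below 1 CPM in every low KPY library, and all rows of the table reach 1 CPM in 3 libraries. Such rows could enter the table only through the high KPY libraries. The smallest count of any row was 10, in low KPY replicate 3 at CUFF.29766, with an exact 95% Poisson interval of 4.80 to 18.4 counts that covers counting error only. CUFF.29766 had 39 and 33 counts in the other low KPY libraries and 251, 122 and 189 in high KPY, and CUFF.29762 had 35, 25 and 43 in low KPY and 374, 188 and 171 in high KPY.

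Of the 6 Florentine rows 5 fell past the threshold, where 20.0% of all Florentine rows did. CUFF.29070 had 319, 117 and 290 counts in low KPY, against 791, 667 and 692 in high KPY, a log2 fold change of -1.96 (SE 0.42, edgeR quasi-likelihood FDR 0.0181). CUFF.29072 did not pass, with 57, 15 and 106 counts in low KPY and 168, 100 and 94 counts in high KPY, a log2 fold change of -1.45 (SE 0.65, FDR 0.120). Its 106 counts in low KPY replicate 3 exceed the 2 lower high KPY counts, but in CPM, where the depth of the libraries is taken into account, its classes did not overlap. Of Eucgr.H03496, CUFF.27571 had 208, 78 and 202 counts in low KPY, against 526, 379 and 375 in high KPY (log2 fold change -1.79, SE 0.43, FDR 0.0231). CUFF.27572 had 163, 93 and 182 counts in low KPY, against 506, 375 and 393 in high KPY (log2 fold change -1.95, SE 0.32, FDR 0.0148), and CUFF.27570 had 21, 20 and 49 counts in low KPY, against 86, 65 and 56 in high KPY (log2 fold change -1.65, SE 0.40, FDR 0.0234). In CPM every row of both genes in both trials had all low KPY libraries below all high KPY libraries. That pattern was shown by 26.7% of all Meunna rows and 29.0% of all Florentine rows. It was set in advance for CUFF.27570, as for CUFF.29762, CUFF.29765 and CUFF.29766 of Meunna. All were below 1 CPM in every low KPY library, so only high KPY could bring them to 1 CPM in 3 libraries. Their direction among the falls counted above was set likewise.

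**Figure D2:**
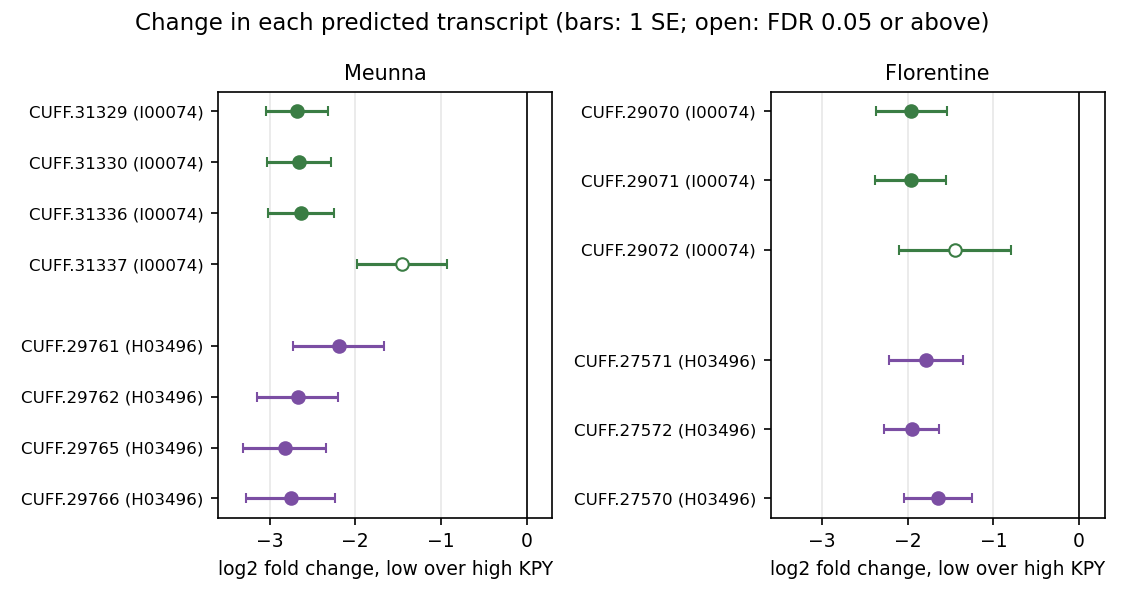
Log2 fold change, low over high KPY, of each predicted transcript of Eucgr.I00074 (green) and Eucgr.H03496 (purple), in Meunna on the left and Florentine on the right, with bars of 1 SE from edgeR. Rows run down the page in order of position within Eucgr.I00074, and for Eucgr.H03496 in the order of matching pieces; the open points, CUFF.31337 and CUFF.29072, are the rows that did not pass FDR 0.05, and they lie nearest to 0 in their trials.

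The rows that did not pass are also those that held the smallest part of Eucgr.I00074 in their trials. CUFF.31337 made up 2.18% to 8.42% of the counts of the gene in Meunna low KPY libraries and 2.11% to 3.28% in high KPY libraries. CUFF.29072 made up 6.02% to 15.5% in Florentine low KPY libraries and 6.37% to 9.61% in high KPY libraries. The ranges of the classes overlapped in both rows. The ranges also overlapped in every row of Eucgr.H03496. CUFF.27571 made up 40.8% to 53.1% of the gene in Florentine low KPY and 45.5% to 47.0% in high KPY. The spread was wider for CUFF.29766, with 6.71% to 31.7% in Meunna low KPY and 17.2% to 22.4% in high KPY.

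The log2 ratio of the genes to each other differed between the classes by less than the SD of either class in Meunna. In Florentine the difference was below the SD of low KPY (0.22) and above that of high KPY (0.10). For each 1000 counts of Eucgr.I00074 there were 171 to 214 counts of Eucgr.H03496 in Meunna low KPY libraries and 164 to 211 in Meunna high KPY libraries. In Florentine there were 566 to 767 in low KPY and 559 to 639 in high KPY. The classes overlapped in both trials, and the mean log2 ratio of Eucgr.H03496 to Eucgr.I00074 was 0.05 higher in low KPY in Meunna and 0.14 higher in Florentine (two-sided exact permutation p 0.5 in each, where 0.1 is the smallest p that 3 against 3 libraries allow). These ratios depend on the lengths of the predicted transcripts, which are not in the tables, so they compare libraries of a trial and not the level of one gene with that of the other.

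A further 10 genes annotated as sucrose synthase were followed beside them, a list taken mostly from tables of transcripts called in these samples and so no independent evidence of direction. Of the 10, all measured in Meunna, 9 fell past the threshold and 1 did not pass, with a median log2 fold change of -2.45. Eucgr.C03207, among those that fell, was below 1 CPM in every Meunna low KPY library. The limit of 1 CPM in 3 libraries thus set its direction in advance. Of the 8 measured in Florentine 6 fell and 2 did not pass, with a median of -1.66. Of all genes tested 20.0% fell in Meunna and 23.7% in Florentine. Eucgr.C03199 had the highest mean CPM of the family in all groups but Meunna low KPY, where Eucgr.H01094 was higher. It had 805, 338 and 724 CPM in Meunna low KPY against 2226, 3234 and 3841 CPM in high KPY, a log2 fold change of -2.32 (SE 0.37, edgeR quasi-likelihood FDR 0.00580). In Florentine it had 2493, 673 and 1627 CPM in low KPY against 5265, 4691 and 5304 CPM in high KPY, a log2 fold change of -1.67 (SE 0.46, FDR 0.0277). Eucgr.C00769 changed by -2.28 in Meunna and -1.66 in Florentine (FDR 0.00335 and 0.0153). The call counts of this list depended on single libraries in Florentine, where the quasi-likelihood test called 0 of them without high KPY replicate 1, when it called no gene at all, 2 without low KPY replicate 3 and 2 without high KPY replicate 3. The exact test called 5 or 6 and DESeq2 5 to 7 with any 1 library left out.

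Eucgr.H01094, annotated as sucrose synthase 3, was the exception of the family in both trials. It had 1349, 931 and 1391 CPM in Meunna low KPY, against 1210, 998 and 1288 CPM in high KPY, a log2 fold change of 0.07 (SE 0.19, edgeR quasi-likelihood FDR 0.793). In Florentine it had 372, 358 and 376 CPM in low KPY, against 380, 419 and 352 CPM in high KPY, a log2 fold change of -0.06 (SE 0.10, FDR 0.661). The classes overlapped in both trials, and in Florentine the sign of the difference turned with library size scaling, to 0.26, without passing the threshold. Eucgr.F01010 fell in Meunna (log2 fold change -2.30, FDR 0.00219), while in Florentine it was at -0.47 (FDR 0.318). Its difference between trials, 1.82 with SE 0.43, had an unadjusted p of 0.00145 and an FDR of 0.454 by edgeR's quasi-likelihood test of the interaction, so it did not pass either.

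**Figure D3:**
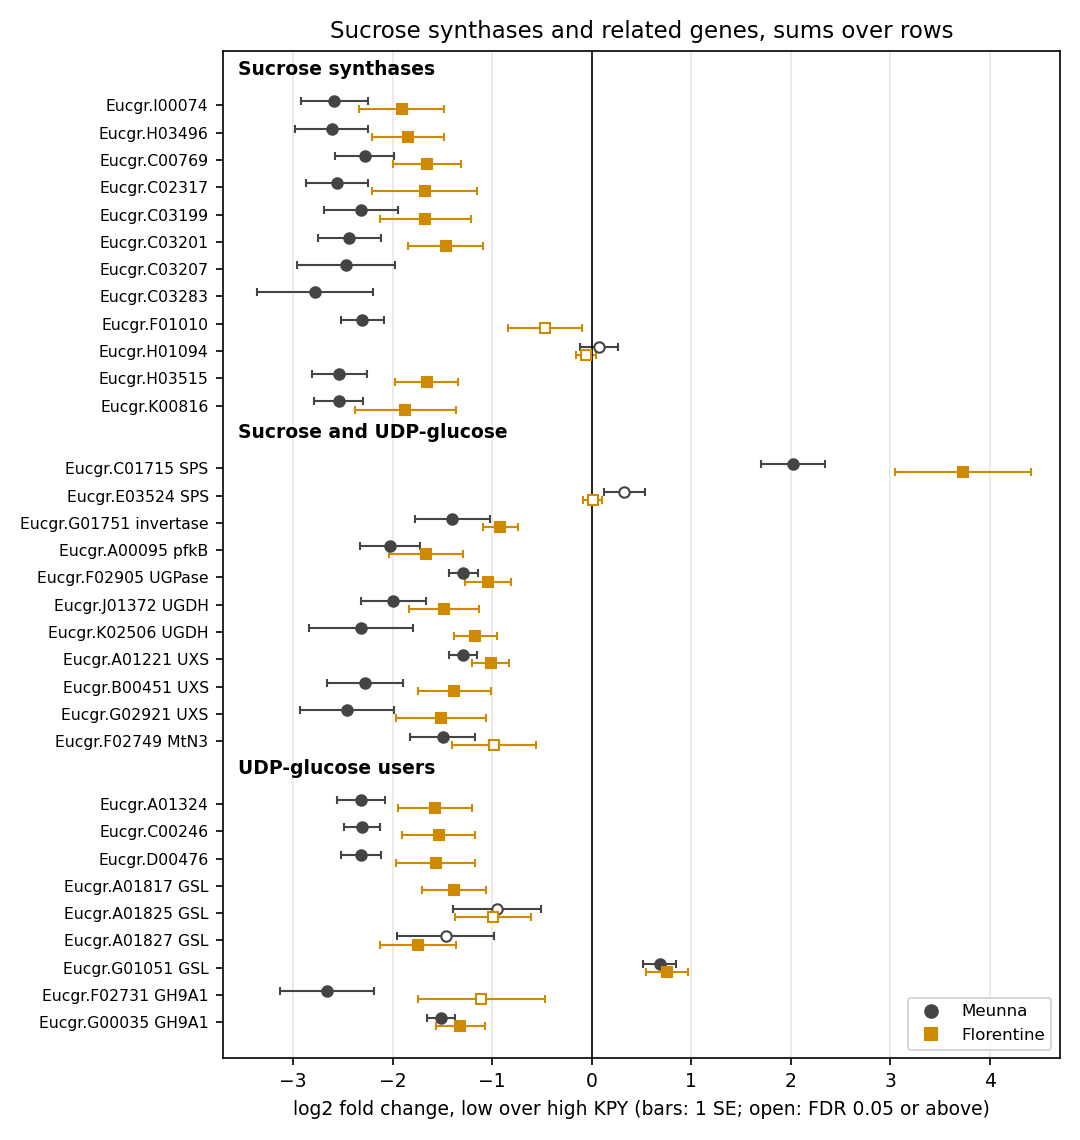
Log2 fold change, low over high KPY, of the sucrose synthases (Eucgr.I00074 and Eucgr.H03496 at the top), of genes of sucrose and UDP-glucose metabolism and of UDP-glucose users, with bars of 1 SE, circles for Meunna and squares for Florentine. The last group also holds glycosyl hydrolase 9A1 genes, which are not users of UDP-glucose. SPS is sucrose phosphate synthase, UGPase UDP-glucose pyrophosphorylase, UGDH UDP-glucose 6-dehydrogenase, UXS UDP-glucuronic acid decarboxylase, MtN3 a nodulin-type sugar transporter, GSL glucan synthase-like and GH9A1 glycosyl hydrolase 9A1, and names without a suffix in the last group are cellulose synthases; most points lie between -1 and -3, Eucgr.H01094 lies near 0 in both trials, Eucgr.E03524 at 0.33 in Meunna and 0.01 in Florentine, both without passing the threshold, and Eucgr.C01715 and Eucgr.G01051 lie above 0 past it.

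Within the family the counts of both genes were set against other members in the same library, which removes the scaling of the library. Counts per 1000 counts of Eucgr.C03199 were 17.4 to 22.7 for Eucgr.I00074 in Meunna low KPY and 17.1 to 40.8 in high KPY, and 6.09 to 7.40 in Florentine low KPY and 7.18 to 8.59 in high KPY. The classes overlapped in both trials for Eucgr.I00074 and likewise for Eucgr.H03496, with differences of the mean log2 ratio between -0.26 and -0.07. Against Eucgr.C00769 they overlapped in Meunna, but not in Florentine, where Eucgr.H03496 had 16.4 to 17.7 counts per 1000 in low KPY and 19.1 to 20.0 in high KPY, and Eucgr.I00074 21.4 to 30.1 in low KPY and 31.3 to 34.7 in high KPY. Against Eucgr.H01094 they were apart in both trials: Eucgr.I00074 had 7.80 to 11.8 counts per 1000 in Meunna low KPY and 55.4 to 75.1 in high KPY, and 12.3 to 40.7 in Florentine low KPY and 84.4 to 119 in high KPY. The mean log2 ratio to Eucgr.H01094 was lower in low KPY by 2.69 and 2.03 for Eucgr.I00074 and by 2.64 and 1.88 for Eucgr.H03496 in Meunna and Florentine. Each of these 4 differences had a two-sided exact permutation p of 0.1, the smallest possible, and 0.233 after adjustment over the 14 ratios compared, so the design cannot reach 0.05 for a ratio. Eucgr.C00769 and Eucgr.H01094 were chosen for these ratios after their values were seen.

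**Figure D4:**
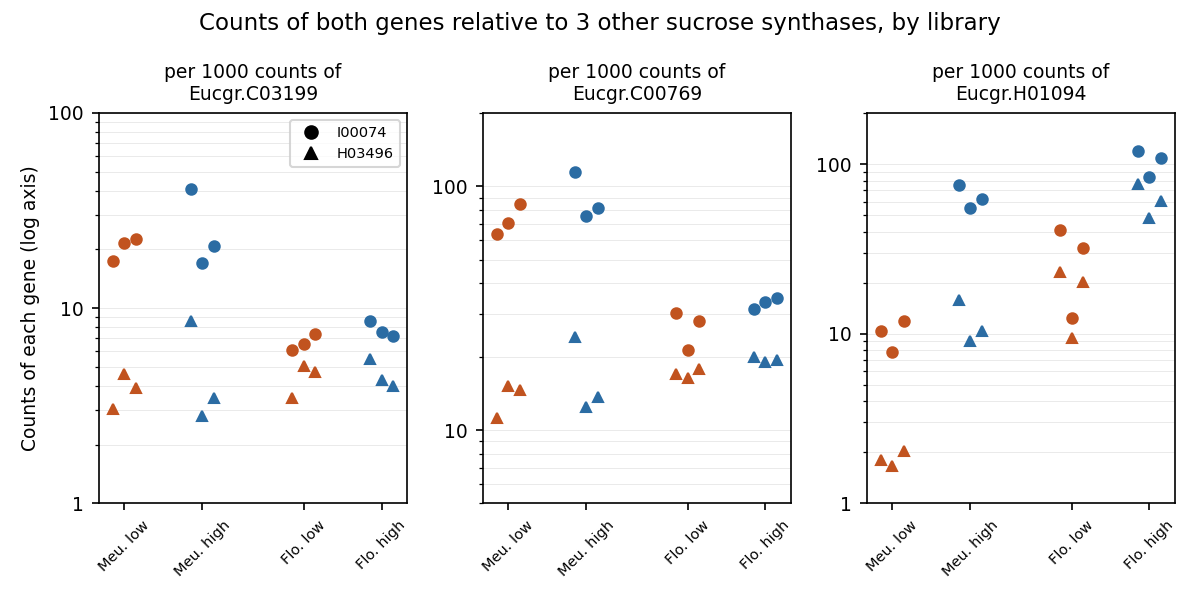
Counts of Eucgr.I00074 (circles) and Eucgr.H03496 (triangles) per 1000 counts of 3 other sucrose synthases in the same library, on log axes, with low KPY in orange and high KPY in blue for Meunna (Meu.) and Florentine (Flo.). Relative to Eucgr.C03199 the classes overlap, and relative to Eucgr.H01094 every low KPY library lies below every high KPY library of its trial.

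Genes around sucrose and UDP-glucose were taken as a further list. It held enzymes that make or cleave sucrose or act on UDP-glucose and the sugars made from it. A pfkB-like carbohydrate kinase and the nodulin-type sugar transporter Eucgr.F02749 were also in it. Like that of the sucrose synthases, the list came mostly from transcripts called in these samples, so it is no independent evidence of direction. In Meunna 9 of 11 fell, 1 rose and 1 did not pass (median log2 fold change -1.49), and in Florentine 8 fell, 1 rose and 2 did not pass (median -1.04), against 20.0% and 23.7% of all genes that fell and 14.6% and 23.6% that rose. UDP-glucose 6-dehydrogenase Eucgr.J01372, which leads UDP-glucose into pectin and xylan precursors, fell by 1.99 and 1.48 on the log2 scale, and UDP-glucose pyrophosphorylase Eucgr.F02905, which links UDP-glucose with glucose 1-phosphate, fell by 1.29 and 1.04. The pfkB-like carbohydrate kinase Eucgr.A00095 fell by 2.02 and 1.66. The neutral invertase Eucgr.G01751 fell too, with log2 fold changes of -1.40 in Meunna and -0.92 in Florentine (edgeR quasi-likelihood FDR 0.0303 and 0.0141). On library size only, its Meunna value of -1.12 did not pass (FDR 0.0506). Sucrose phosphate synthase is an enzyme of sucrose synthesis. Its gene Eucgr.C01715 rose to 64.3 ± 20.1 CPM in Meunna low KPY, against 15.8 ± 5.33 CPM in high KPY, and to 34.4 ± 12.9 CPM in Florentine low KPY, against 2.60 ± 2.01 CPM in high KPY (SD, n = 3 each), log2 fold changes of 2.02 and 3.72 (edgeR quasi-likelihood FDR 0.00575 and 0.0136). The other sucrose phosphate synthase, Eucgr.E03524, was at 0.33 and 0.01 (FDR 0.244 and 0.945). On library size only it was at 0.61 in Meunna and 0.33 in Florentine and passed the threshold in both. In Florentine the quasi-likelihood test called 0 falls in this list when high KPY replicate 1 was left out, 3 when low KPY replicate 3 was and 3 when high KPY replicate 3 was, while the exact test and DESeq2 called 8 or 9 without any 1 library.

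The third list held users of UDP-glucose, namely cellulose synthases and glucan synthase-like genes. It also held endoglucanase genes of glycosyl hydrolase 9A1, which are not users of UDP-glucose. The list was chosen with earlier results of these data known, so it is no independent evidence of direction. Of the 8 measured in Meunna 5 fell, 1 rose and 2 did not pass, and of the 9 in Florentine 6 fell, 1 rose and 2 did not pass, where 20.0% and 23.7% of all genes fell and 14.6% and 23.6% rose. In Florentine the quasi-likelihood test called 0 falls in this list when high KPY replicate 1 was left out, 3 when low KPY replicate 3 was and 2 when high KPY replicate 3 was, and the exact test and DESeq2 called 6 or 7 without any 1 library. The cellulose synthases Eucgr.A01324, Eucgr.C00246 and Eucgr.D00476, subunits of the secondary wall complex, fell, with log2 fold changes of -2.32, -2.31 and -2.31 in Meunna and -1.57, -1.54 and -1.57 in Florentine. Eucgr.I00074 and Eucgr.H03496, at -2.58 and -2.61 in Meunna and -1.91 and -1.84 in Florentine, thus had lower log2 fold changes than all 3 cellulose synthases in both trials, by margins smaller than their own SE. The glycosyl hydrolase 9A1 gene Eucgr.G00035, a membrane-bound endoglucanase of the kind that works with cellulose synthase, fell by 1.52 and 1.32. The gene that rose in this list was the glucan synthase-like Eucgr.G01051, at 0.68 (FDR 0.0211) and 0.75 (FDR 0.0282), whose family makes callose from UDP-glucose. In Meunna only cellulose synthases and glycosyl hydrolase 9A1 genes of the list fell past the threshold. Of these, Eucgr.F02731 was below 1 CPM in every Meunna low KPY library, so the limit of 1 CPM in 3 libraries set its direction in advance. The glucan synthase-like Eucgr.A01825 and Eucgr.A01827 were at -0.95 and -1.46 there (edgeR quasi-likelihood FDR 0.140 and 0.0567). In Florentine Eucgr.A01817 and Eucgr.A01827 fell (-1.38 and -1.74, FDR 0.0184 and 0.0167), and Eucgr.A01825 did not pass (-0.99, FDR 0.0728).

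The make-up of the scrapings was read from marker genes. The xylem markers Eucgr.J00937 and Eucgr.J00938 stand among the strongest falls that the study listed from these same libraries. The calls of the xylem markers are therefore no independent evidence of direction. The 6 markers of developing xylem, 3 of them the cellulose synthases above, all fell in both trials, where 20.0% of all genes fell in Meunna and 23.7% in Florentine. Their summed level was 1292 to 2321 CPM in Meunna low KPY and 8490 to 10579 CPM in high KPY, and 2460 to 6572 CPM in Florentine low KPY and 13621 to 16150 CPM in high KPY, so the labelled tissue was present in every library. Of the photosynthetic markers of bark 2 of 3 fell in Meunna (summed level 51.0 to 79.1 CPM in low KPY and 114 to 171 CPM in high KPY) and 4 of 4 in Florentine (56.4 to 94.4 CPM in low KPY and 159 to 177 CPM in high KPY). The phloem protein gene Eucgr.B01904 had 0.164 to 0.700 CPM in Meunna low KPY and 1.89 to 3.54 CPM in high KPY. In Florentine it had 0.213 to 1.16 CPM in low KPY and 1.29 to 2.27 CPM in high KPY. It passed the threshold in Meunna (edgeR quasi-likelihood FDR 0.0168) and not in Florentine (FDR 0.0852). Its Meunna low KPY libraries held only 22, 11 and 37 counts. They were all below 1 CPM, so the limit of 1 CPM in 3 libraries set its direction there in advance. No summed level was at 0 in any library. All xylem, bark and phloem markers measured had negative log2 fold changes in both trials, and their part in the fall of the sucrose synthases was not tested.

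The genes whose pattern was most like that of each gene were found over all 12 libraries, by the root mean square difference of log2 CPM after centring each gene on its own mean. For Eucgr.I00074 these were Eucgr.K02806, annotated as myb domain protein 86 (0.29 log2 units), Eucgr.G01911 of unknown product (0.33), the acyl-transferase Eucgr.J00363 (0.34), the microtubule motor Eucgr.J02403 (0.35) and the sucrose synthase Eucgr.C02317 (0.38), where the median over all genes was 1.35. For Eucgr.H03496 they were the sucrose synthase Eucgr.H03515 (0.29), the ribose 5-phosphate isomerase Eucgr.H04380 (0.29), the ABL interactor-like Eucgr.E01020 (0.29), the sucrose synthase Eucgr.C00769 (0.30) and the zinc finger gene Eucgr.B00572 (0.31), where the median was 1.41. Over the 12 libraries Eucgr.H03496 was only the gene of rank 1318 from Eucgr.I00074, at 0.89. Within the 6 Meunna libraries, however, it was at rank 2, and within the 6 Florentine libraries at rank 18, at 0.16 in both. Centring over both trials includes the level set by transcripts predicted separately, and few of the neighbours were shared with those found within a trial: of the 5 of Eucgr.I00074, 1 was found in Meunna alone and 0 in Florentine alone, and of the 5 of Eucgr.H03496, 0 and 2.

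Sucrose synthases resemble each other in sequence. The methods say that ambiguous reads were to be excluded by the default limit of TopHat on multiple matches, and they do not say how reads below that limit were counted where copies are near-identical, so the split of counts between such copies is uncertain.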

How the data were processed

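RNA of cambial scrapings was sequenced in 12 libraries. For each trial the authors pooled the reads, aligned them to the genome of *E. grandis* (TopHat, Bowtie) and assembled transcripts without a reference annotation (Cufflinks). Reads of every bulk were then counted on these transcripts (BEDtools), and the authors deposited the raw read counts, 1 table per trial. Which genome version served was not given in the sources used here. All rows already reached 1 CPM in 3 libraries.

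Counts of rows with the same gene identifier were summed, which gave 17982 genes in Meunna and 16980 in Florentine. The 4754 Meunna and 3692 Florentine rows without an identifier entered only the fits on transcripts. Fits used edgeR 4.0.16 in R 4.3.3 (quasi-likelihood F test, TMM, KPY class as the only factor), and an SE is the size of the log2 fold change divided by the square root of F. The scripts were tested on simulated data. Ratios within libraries were compared by exact permutation tests in SciPy. Alternatives were DESeq2 1.42.0, edgeR's exact and likelihood ratio tests, RLE, upper-quartile and library size scaling, stricter filters, a replicate block, the strongest row of a gene, identical rows entered once, and leaving out each library. Leaving out each library under DESeq2 and the exact test, leaving out the overlapping row and the shift of the median under each scaling were added after seeing the data.

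The genes and lists were chosen with earlier results of these data known. Named are every row of both genes, the listed genes with the highest CPM or an exceptional direction, a few further listed genes, and the 5 nearest genes of each (prior count of 2).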

Additional observations from a re-analysis of the deposited data

How the results depend on the processing

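Both sucrose synthases kept their direction under every alternative run, and in Meunna also their calls. With a filter of at least 5 CPM in 3 libraries 3 rows of the genes were left and fell in Meunna, because rows with fewer counts were removed. The interaction called 42 genes by edgeR's likelihood ratio test and 110 by DESeq2, against 0 by the quasi-likelihood test. With 1 library left out under the quasi-likelihood test, Eucgr.I00074 had log2 fold changes of -2.80 to -2.27 (Meunna) and -2.26 to -1.54 (Florentine), and Eucgr.H03496 had -2.84 to -2.30 (Meunna) and -2.09 to -1.53 (Florentine). The difference between trials ranged from 0.31 to 0.99 for Eucgr.I00074 and from 0.42 to 1.03 for Eucgr.H03496. Over these settings 3808 to 5382 genes passed in Meunna and 0 to 8626 in Florentine, with 4636 to 7991 and 5520 to 9977 by the exact test and DESeq2. On transcripts 4163 to 5969 rows passed in Meunna and 0 to 10281 in Florentine, and 6 to 8 rows of the sucrose synthases fell in Meunna and 0 to 5 in Florentine. On Florentine transcripts the quasi-likelihood test called 0 of all rows without high KPY replicate 1 and likewise without high KPY replicate 3, so these counts of 0 are not particular to the sucrose synthases, and the cause was not tested. CUFF.29761 passed with 2 of the 6 Meunna libraries left out in turn. For low and high KPY libraries with the same replicate number, deviations from the class means correlated at -0.08, 0.04 and 0.12 in Meunna. In Florentine they correlated at -0.08, 0.26 and -0.01. Libraries with different numbers gave -0.18 to 0.17 in Meunna and -0.32 to 0.32 in Florentine. Deviations within a class of 3 libraries sum to 0, so these values cannot decide whether replicate numbers paired the libraries. With the replicate number as a block, Eucgr.I00074 was at -2.63 and -2.06 and Eucgr.H03496 at -2.59 and -1.93 in Meunna and Florentine, no call of a row or sum of either gene changed, and 5580 and 7953 genes passed.

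Depth limits the short rows of Eucgr.H03496, with as few as 10 counts in a low KPY library, and CUFF.29072, with 15. The values come from 3 bulks per class.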
